A study of Mus musculus with 6 samples.

Results

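The Hox genes described here are the genes of the mouse HoxA, HoxB, HoxC and HoxD clusters. They were taken from the deposited expression table by symbol, as Hox followed by a cluster letter and a paralog number, and antisense or opposite-strand genes of the clusters were left out. The table held 34 of them among 23622 genes. GENCODE vM21 lists 39, and Hoxb1, Hoxb13, Hoxd1, Hoxd3 and Hoxd12 were not analysed here. Poly-T purified mRNA had been sequenced from 6 untreated cultures of bone progenitors, which were obtained from C57BL/6 bone marrow at 2 weeks of age and grown to generation 3. The labels describe 3 cultures as wild type (ctrl), here control 2, 3 and 4, and 3 as Ift140-/-(cko), here cKO 2, 3 and 4. Ift140 encodes a subunit of the complex that moves cargo back along the primary cilium. The labels used here give no Cre driver, no bone of origin and no animal of origin for a culture, and the series' design text calls the samples of a group biological replicates.

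Hox genes encode homeodomain transcription factors that give cells along the head-to-tail axis and along the limb their positional identity. Their order in a cluster, written as the paralog number, follows the order in which they are used along these axes: low numbers act towards the head, middle numbers in the neck and trunk, and high numbers in the lumbar and sacral region and the limbs. In the limb the paralogs 9 and 10 pattern the upper segment, paralog 11 the middle segment and paralog 13 the digits. Mesenchymal and skeletal progenitor cells of adult animals are known to keep a Hox pattern that reflects the place they came from, also in culture.

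The library sizes that divide the deposited values, worked out from the FPKM, ranged from 17180101 to 28283414. They are not plain totals of the reads recovered from the FPKM. Those reads summed to more in control 4 (20782460 against 20770169) and in cKO 4 (28905817 against 28283414). Ift140 mRNA averaged 2.97 FPKM (SD 0.194) over the controls and 1.79 FPKM (SD 0.0951) over cKO, which left 60.2% of the control level (limma adjusted p = 0.0138; without control replicate 4 it was 0.0721, and it was 0.0599 without cKO replicate 3). The labelled cell type came with high stromal and osteoblast-lineage transcripts: Col1a1 lay between 2218 and 3313 FPKM, Sp7 between 28.8 and 77.2 FPKM and Alpl between 90.0 and 236.0 FPKM in every library, while Lepr stayed between 0.106 and 0.657 FPKM. Macrophage transcripts were also abundant, and the 12 macrophage and haematopoietic markers summed to 2173 to 2723 FPKM in controls and 2668 to 3615 FPKM in cKO. Xist was at 0.0732 FPKM in controls against 38.2 FPKM in cKO, and the Y-linked genes were read in the controls, with 1 read in all for cKO, so that genotype and a male or female expression pattern cannot be told apart in any comparison below.

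Hoxa10 was the highest Hox gene in all 6 libraries, and Hoxc10 was the next in 5 of them. FPKM, the deposited unit, scales reads by the length of the gene and by a size of the library, so levels of different genes can be compared per length. Hoxa10, which patterns the upper limb segment and the lumbar vertebrae, averaged 17.0 FPKM over the 6 libraries. Hoxc10, a lumbar and hindlimb gene, averaged 11.1 FPKM, and Hoxa10 was at least 1.24 times as high in each library. Below them followed Hoxa11 with a mean of 7.64, Hoxc6 with 6.22, Hoxa5 with 5.47, Hoxa6 with 5.07, Hoxa9 with 5.01, Hoxc9 with 4.98, Hoxa13 with 4.81, Hoxa7 with 4.24 and Hoxc11 with 4.06 FPKM. Then came Hoxd8 at 3.18, Hoxc4 at 3.00, Hoxc13 at 2.15, Hoxb4 at 1.81, Hoxc8 at 1.53, Hoxc5 at 1.51 and Hoxa3 at 1.24 FPKM. From Hoxc10 down to Hoxa3, the ranges over the libraries of each pair of neighbours in this order overlapped, so only the place of Hoxa10 at the top was set apart by more than the spread. The other 16 members averaged under 1 FPKM: the 6 of them that were tested lay between 0.225 and 1.04 FPKM, and the 10 that were not tested between 0 and 0.707 FPKM in any library.

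**Figure D1:**
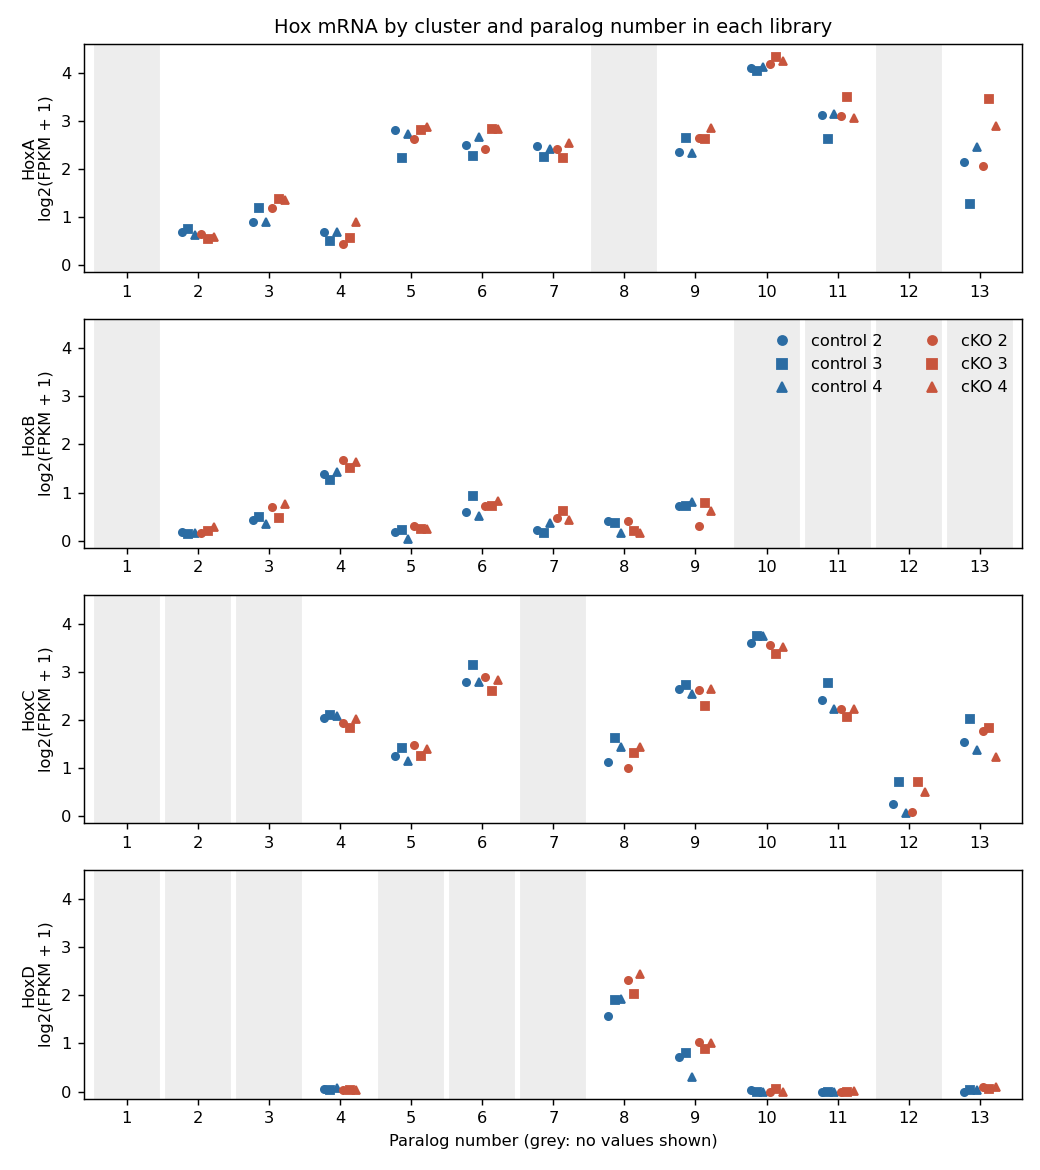
Level of 33 of the 34 Hox genes as log2(FPKM + 1) against the paralog number, in 1 panel per cluster and with 1 point per library (controls blue, cKO red; grey columns have no values shown). HoxA genes from 5 to 13 and HoxC genes from 4 to 13 other than Hoxc12 hold most of the high values in all 6 libraries, with the peak at paralog 10, and HoxD is nearly empty above paralog 9.

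By cluster, HoxA held 45.4% to 62.1% of the summed Hox FPKM of a library and HoxC 29.4% to 46.4%. HoxB held 3.97% to 5.04% and HoxD 2.95% to 5.45%. By paralog number, the posterior paralogs 9 to 13 held 58.8% to 64.3%, the middle paralogs 4 to 8 held 32.5% to 37.5% and the anterior paralogs 1 to 3 held 2.87% to 3.65%. The split over these broad ranges of paralog number thus moved by fewer percentage points between libraries than the shares of HoxA and HoxC. Some single paralog numbers varied more: paralog 13 summed to 4.51 to 12.5 FPKM and paralog 3 to 1.14 to 2.28 FPKM. Paralog 10 summed to 27.3 to 28.8 FPKM, the highest of the 13 paralog numbers. Paralogs 11, 6 and 9 came next with sums of 10.9 to 13.5, 11.1 to 13.0 and 9.84 to 12.9 FPKM, and paralog 12 lay between 0.0467 and 0.645 FPKM, from Hoxc12 alone.

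The posterior genes of HoxA and HoxD, which act together in the developing limb, stood far apart in level. Hoxa13 averaged 4.81 FPKM, while Hoxd13, its digit-patterning paralog, averaged 0.0374 FPKM from 0, 1 and 1 reads in controls 2, 3 and 4 and from 3, 2 and 5 reads in cKO 2, 3 and 4. Hoxd10 averaged 0.00964 FPKM on 1 read in control 2 and 1 read in cKO 3. Hoxd11, the partner of Hoxa11 in the middle limb segment, had 1 read in cKO 4 and none in the other 5 libraries. A count of 0 allows up to 3 reads, which in the libraries at 0 corresponds to 0.0584 to 0.0962 FPKM for Hoxd10 and to 0.0330 to 0.0415 FPKM for Hoxd11, by counting error only. Within HoxD nearly all reads thus fell on Hoxd8 and Hoxd9.

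The start regions of these paralogs are shown because Hoxa10 and Hoxa13 were read in every library while Hoxd10 and Hoxd13 were at or near 0, and that of Hoxd8 because it is the HoxD gene with the highest level. Each is the RefSeq window of 300 bases in GRCm38.p6, from 250 bases before to 50 bases after the transcript start, printed 5′ to 3′ on the gene's strand. Capitals mark GGGCGG (the GC box), CCAAT (the CCAAT box) and TATAAA (the TATA box) on either strand, and overlapping matches were each counted. The windows lie at chr6:52240805-52241104 on the minus strand (Hoxa10), chr2:74691641-74691940 on the plus strand (Hoxd10), chr6:52260831-52261130 on the minus strand (Hoxa13), chr2:74667975-74668274 on the plus strand (Hoxd13) and chr2:74704365-74704664 on the plus strand (Hoxd8).
Hoxa10: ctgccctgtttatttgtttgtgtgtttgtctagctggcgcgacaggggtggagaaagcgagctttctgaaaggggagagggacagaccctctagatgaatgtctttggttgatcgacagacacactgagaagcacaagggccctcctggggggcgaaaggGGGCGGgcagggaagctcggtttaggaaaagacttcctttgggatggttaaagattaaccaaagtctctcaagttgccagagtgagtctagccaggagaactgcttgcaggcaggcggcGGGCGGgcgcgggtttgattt
Hoxd10: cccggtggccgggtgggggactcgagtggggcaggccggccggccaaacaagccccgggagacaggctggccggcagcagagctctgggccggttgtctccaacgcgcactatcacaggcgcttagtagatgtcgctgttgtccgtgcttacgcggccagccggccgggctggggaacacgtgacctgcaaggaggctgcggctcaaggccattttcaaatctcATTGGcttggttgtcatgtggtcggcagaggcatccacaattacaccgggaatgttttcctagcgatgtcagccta
Hoxa13: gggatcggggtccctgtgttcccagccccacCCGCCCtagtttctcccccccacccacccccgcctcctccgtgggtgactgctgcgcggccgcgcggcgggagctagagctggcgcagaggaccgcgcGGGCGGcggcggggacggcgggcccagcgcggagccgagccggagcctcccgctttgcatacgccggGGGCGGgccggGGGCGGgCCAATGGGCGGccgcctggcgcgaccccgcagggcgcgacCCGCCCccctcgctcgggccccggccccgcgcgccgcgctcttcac
Hoxd13: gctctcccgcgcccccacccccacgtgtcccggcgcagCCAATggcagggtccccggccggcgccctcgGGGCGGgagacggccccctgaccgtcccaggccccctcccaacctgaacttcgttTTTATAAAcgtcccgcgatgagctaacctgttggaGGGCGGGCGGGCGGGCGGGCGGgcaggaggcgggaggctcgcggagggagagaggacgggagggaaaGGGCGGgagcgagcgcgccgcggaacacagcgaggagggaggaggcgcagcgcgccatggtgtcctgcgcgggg
Hoxd8: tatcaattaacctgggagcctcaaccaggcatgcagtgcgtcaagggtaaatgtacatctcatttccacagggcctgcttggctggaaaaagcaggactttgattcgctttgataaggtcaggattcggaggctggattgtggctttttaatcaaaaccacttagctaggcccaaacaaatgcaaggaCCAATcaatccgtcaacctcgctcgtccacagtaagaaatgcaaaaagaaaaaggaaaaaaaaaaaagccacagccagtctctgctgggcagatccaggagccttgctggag

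The window of Hoxa13 held 45 CpG dinucleotides, the most of the Hox windows, and 6 GC boxes. That of Hoxd13, nearly unread, was built alike, with 37 CpG dinucleotides, 7 GC boxes and 2 overlapping matches to the TATA box. Hoxa10 had 12 CpG and 2 GC boxes in the window printed, and 21 CpG, 1 CCAAT box, 1 TATA box and 0 GC boxes in its second window, at chr6:52234890-52235189, whose start lies 5915 bases from that of GENCODE vM21. In their windows Hoxd10 had 22 CpG and 1 CCAAT box, and Hoxd8 6 CpG and 1 CCAAT box. The starts of the printed windows of Hoxd10 and Hoxd13 lie 33 and 85 bases from the GENCODE vM21 starts, and those of the other 3 match it. The table has 24 windows for 22 Hox genes, of which 18 genes have values here, since Hoxa10 and Hoxd11 each have a second one. Of these 24 windows 10 had a GC box, 15 a CCAAT box and 4 a TATA box, against 35.7%, 37.4% and 13.6% of all 32851 windows. The median was 14.5 CpG over the Hox windows and 7 over all windows. These matches describe letters in a window and not sites in use.

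No Hox gene passed the test between the groups. In the limma test of log2(FPKM + 1) over all 13326 genes that averaged 0.5 FPKM or more, 0 of the 24 tested Hox genes had a Benjamini-Hochberg adjusted p under 0.05, where 7.61% of all genes were called, 5.04% higher and 2.57% lower in cKO. These are 672 genes higher and 342 lower, and 609 and 560 after quantile normalization. At an unadjusted p under 0.05 there were 7 Hox genes, 6 higher (Hoxd8, Hoxb4, Hoxa3, Hoxa10, Hoxd9 and Hoxa9) and 1 lower (Hoxc10), beside 28.8% of all genes, 16.0% higher and 12.8% lower. The 3 control and 3 cKO values did not overlap for 7 of the 24, 4 higher and 3 lower in cKO, beside 35.7% of all genes, 17.9% higher and 17.8% lower. These shares lie near the background and are no result about the Hox genes. With voom on the reads recovered from the FPKM, which called 8.27% of all genes higher and 3.49% lower, the count was also 0. With library weights, which called 13.2% of all genes higher and 10.3% lower, Hoxa3 (adjusted p = 0.0271), Hoxa9 (0.0328) and Hoxd9 (0.0299) were called higher and Hoxc10 (0.0393) lower in limma.

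The differences ranged widely in size. The log2 fold change, always cKO minus control on the log2(FPKM + 1) scale, ran from -0.30 to 0.84 over the 24 genes with a median of 0.05, beside -0.001 over all genes tested. Of the 24, 14 had a positive value. The median standard error of these log2 fold changes was 0.12, so that a missed call does not show that a level was the same. In these bulk libraries fewer cells that express a gene and less of its mRNA per cell cannot be told apart.

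**Figure D2:**
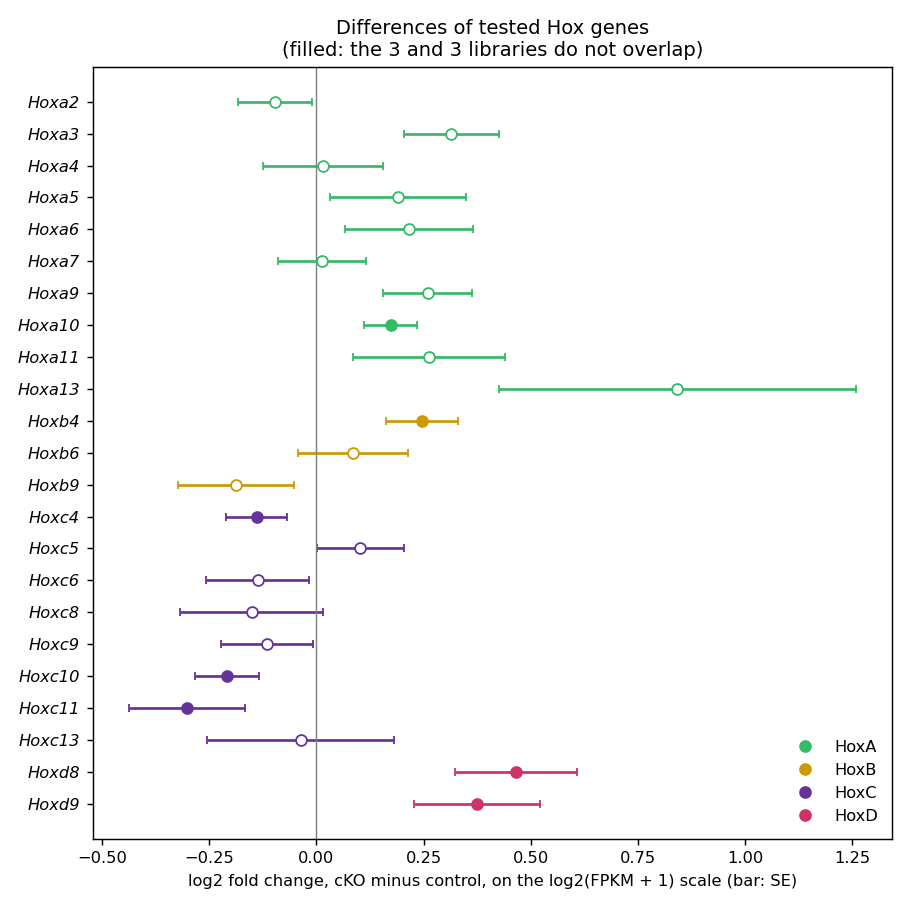
Log2 fold change (cKO minus control, log2(FPKM + 1) scale) of 23 of the 24 tested Hox genes, with bars of 1 standard error and filled points where the 3 control and 3 cKO libraries do not overlap. Most HoxA values lie right of 0 and most HoxC values left of it, and Hoxa13 has the longest bar (SE 0.42).

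The clusters leaned in different directions. In HoxA, which lies at chr6:52155590-52260880 on the minus strand of GRCm38, 9 of 11 tested genes had a positive log2 fold change with a median of 0.19 (0.090 without control replicate 3 and 0.079 with library weights), and 7 of 11 after quantile normalization, GC correction, library weights, or without control replicate 3 or cKO replicate 4. In HoxC, at chr15:102921103-103036852 on the plus strand, 7 of 8 tested genes had a negative value with a median of -0.14 (-0.053 without control replicate 3), and 6 of 8 with library weights, without control replicate 3 or without cKO replicate 4. Over all genes 49.7% were positive. Genes of a cluster are measured in the same libraries, so these counts carry no test.

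The sums of FPKM over each cluster show the same lean with its spread. HoxA summed to 49.5, 41.4 and 50.9 FPKM in controls 2, 3 and 4 and to 49.9, 63.8 and 58.9 FPKM in cKO 2, 3 and 4. The HoxA groups overlapped, with means of 47.2 ± 5.15 and 57.5 ± 7.02 FPKM (SD, n = 3). HoxC summed to 34.3, 42.3 and 34.7 FPKM in the controls and to 34.1, 30.2 and 33.6 FPKM in cKO. All 3 cKO sums of HoxC lay below the controls, but control 2 and cKO 2 were 34.3 and 34.1 FPKM, and the mean of 37.1 ± 4.47 in controls rested on the high control 3. HoxB, at chr11:96194316-96368256 on the plus strand, went from 3.84 ± 0.175 to 4.78 ± 0.192 FPKM, and HoxD, at chr2:74668310-74765142 on the plus strand, from 3.10 ± 0.431 to 4.92 ± 0.776 FPKM (SD, n = 3). For HoxB and HoxD all cKO sums lay above all control sums, also after TMM scaling and quantile normalization. No sums were made after the GC correction. There the median log2 fold change of the tested genes went from 0.086 to -0.0048 in HoxB, with 1 of 3 positive. In HoxD it went from 0.42 to 0.22. Over the 34 genes together the sums were 90.4, 91.1 and 92.4 FPKM in the controls and 93.8, 102.6 and 103.1 FPKM in cKO. These did not overlap as deposited, but did after TMM scaling (90.8 to 92.9 against 92.7 to 104.0 FPKM) and after quantile normalization.

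**Figure D3:**
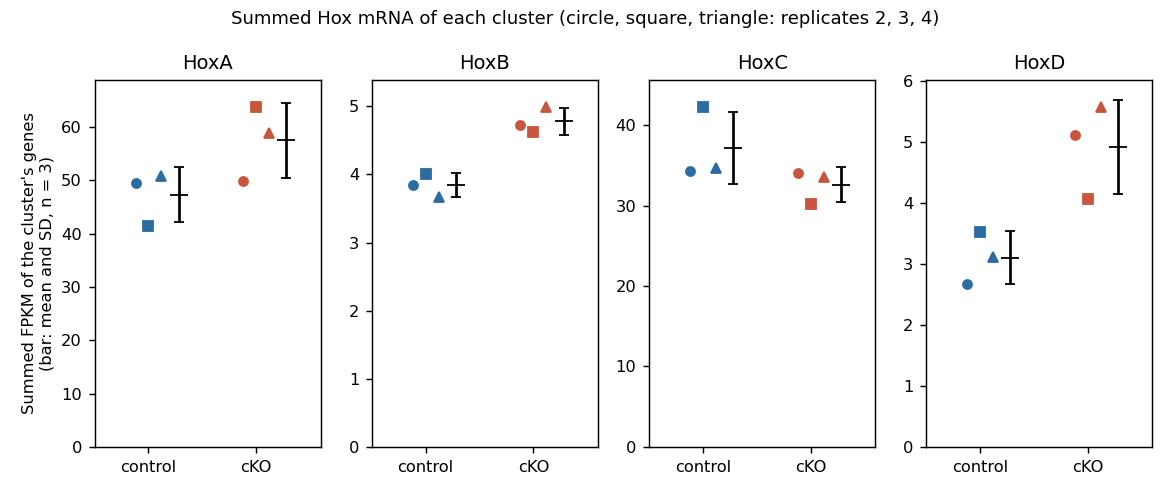
Summed FPKM of the genes of each cluster in each library (circles, squares and triangles are replicates 2, 3 and 4; black bars are the mean and SD of the 3 libraries). HoxA overlaps between the groups, and HoxB and HoxD are higher in cKO at levels under 6 FPKM. For HoxC, cKO 2 and cKO 4 lie just below controls 2 and 4, cKO 3 lies further below them at 30.2 FPKM, and control 3 lies well above the rest.

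Control 3 stood apart within its group in opposite directions for the main clusters. It was the lowest control for 8 of the 11 tested HoxA genes and the highest control for 7 of the 8 tested HoxC genes. Among the cKO libraries, cKO 3 was the lowest for 6 of the 8 HoxC genes and cKO 2 the lowest for 6 of the 11 HoxA genes. The ratio of the HoxA to the HoxC sum was 1.44, 0.979 and 1.47 in controls 2, 3 and 4 and 1.47, 2.11 and 1.75 in cKO 2, 3 and 4. The extremes of this ratio were therefore control 3 and cKO 3, with controls 2 and 4 and cKO 2 lying together.

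**Figure D4:**
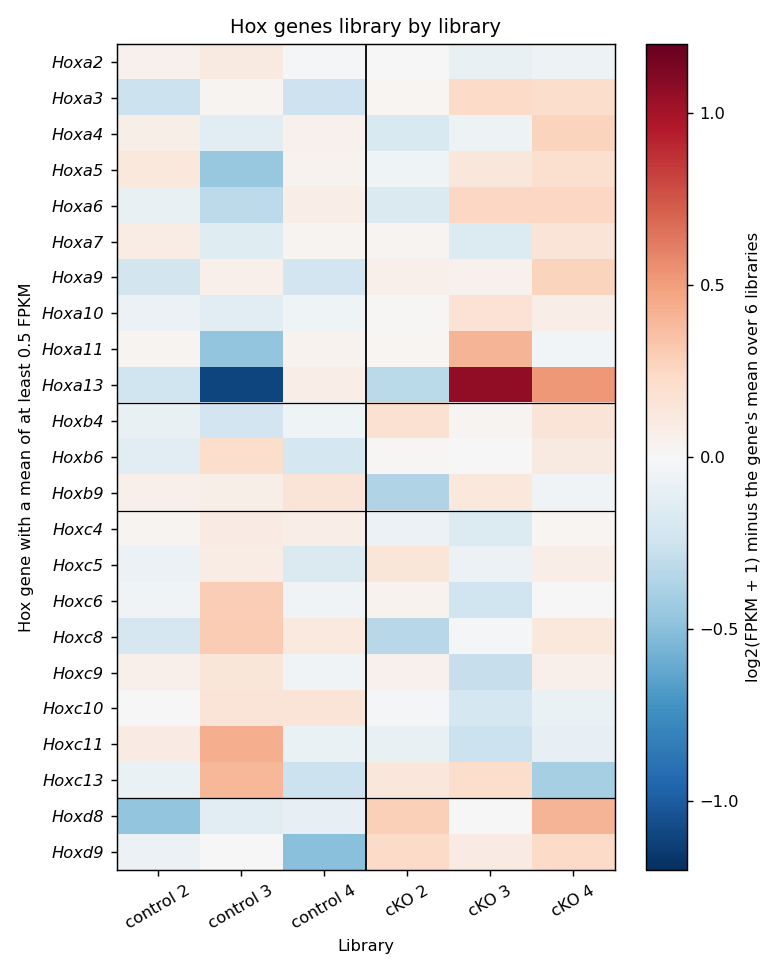
Deviation of 23 of the 24 tested Hox genes in each library from the gene's mean over the 6 libraries, on the log2(FPKM + 1) scale (red above, blue below; horizontal lines part the clusters, the vertical line parts control from cKO). In control 3 the HoxA rows from Hoxa4 to Hoxa7 and from Hoxa10 to Hoxa13 are blue and all HoxC rows are red, and Hoxa13 is the row with the strongest colours.

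Among the posterior HoxA genes, Hoxa10 was the one whose groups did not overlap. Hoxa10 (ENSMUSG00000000938) had 16.2, 15.3 and 16.4 FPKM in controls 2, 3 and 4 and 17.2, 19.2 and 18.0 FPKM in cKO 2, 3 and 4, from 964 to 1666 reads. All cKO values were above all control values, by a log2 fold change of 0.17 (SE 0.06, limma adjusted p = 0.129, exact 2-sided permutation p = 0.1, the smallest that 3 against 3 can give). Hoxa9, which acts in the upper limb segment and in blood stem cells, had 4.13, 5.22 and 4.07 FPKM in the controls and 5.24, 5.19 and 6.18 FPKM in cKO. Here control 3 lay with the cKO libraries (log2 fold change 0.26, SE 0.10, limma adjusted p = 0.160). Hoxa11, the gene of the middle limb segment, had 7.72, 5.13 and 7.79 FPKM in the controls and 7.64, 10.3 and 7.30 FPKM in cKO. Outside control 3 and cKO 3 its 4 values lay between 7.30 and 7.79 FPKM. The antisense gene Hoxa11os covers 35.0% of the exon bases of Hoxa11, and since no strand setting is given in the sources used here, reads of the pair cannot be told apart; Hoxa11os was itself listed at 0.226 to 0.577 FPKM.

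Hoxa13 was the most variable of the 18 genes above 1 FPKM. It had 3.41, 1.42 and 4.50 FPKM in controls 2, 3 and 4 and 3.16, 9.91 and 6.48 FPKM in cKO 2, 3 and 4, from 76 to 453 reads, so the highest library was 6.96 times the lowest. The means were 3.11 ± 1.56 and 6.51 ± 3.38 FPKM (SD, n = 3), and cKO 2 lay inside the control range. The log2 fold change of 0.84 was the largest of the tested Hox genes. However, its standard error was 0.42 and its limma adjusted p 0.236. Without control replicate 3 or cKO replicate 3 the log2 fold change was 0.50 or 0.52. The ratio of Hoxa13 to Hoxa10 ran from 0.0928 in control 3 to 0.515 in cKO 3.

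The middle and anterior HoxA genes did not separate the groups. Hoxa5, which acts in the neck and upper trunk and in the lung, had 5.97, 3.68 and 5.59 FPKM in the controls and 5.18, 6.05 and 6.33 FPKM in cKO. Hoxa6, a trunk gene, had 4.65, 3.82 and 5.34 FPKM in the controls and 4.33, 6.15 and 6.11 FPKM in cKO. For both of them control 3 was the lowest of the 6 libraries. Hoxa7, also a trunk gene, had 4.55, 3.72 and 4.35 FPKM in the controls and 4.33, 3.66 and 4.81 FPKM in cKO, where control 3 and cKO 3 were the low ones. The antisense gene Hoxaas3 covers 20.4% of the exon bases of Hoxa7. Hoxa3, needed for the thymus, the parathyroid and other throat organs, had 0.866, 1.27 and 0.873 FPKM in the controls and 1.27, 1.61 and 1.58 FPKM in cKO. Control 3 again lay with cKO 2, and the log2 fold change was 0.31 (SE 0.11, limma adjusted p = 0.126) and 0.60 with voom. Genes on the opposite strand each cover up to 8.36% of the exon bases of Hoxa3, and Gm28308 on the same strand covers 8.01%. Hoxa2 and Hoxa4, which act in the hindbrain and neck, had means of 0.560 and 0.558 FPKM and log2 fold changes of -0.10 and 0.02.

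In HoxC the posterior genes Hoxc10 and Hoxc11 were lower in every cKO library than in any control. Hoxc10 (ENSMUSG00000022484) had 11.1, 12.4 and 12.4 FPKM in controls 2, 3 and 4 and 10.8, 9.41 and 10.4 FPKM in cKO 2, 3 and 4, from 324 to 562 reads. Its log2 fold change was -0.21 (SE 0.07, limma adjusted p = 0.128, exact 2-sided permutation p = 0.1). Hoxc11, a lumbosacral gene, had 4.34, 5.78 and 3.72 FPKM in the controls and 3.69, 3.18 and 3.66 FPKM in cKO. Control 4 and cKO 2 were nearly level at 3.72 and 3.69 FPKM, and the log2 fold change of -0.30 (SE 0.14, limma adjusted p = 0.198) was -0.16 without control replicate 3. Hoxc13, known for its role in hair and nail keratins, had 1.91, 3.07 and 1.58 FPKM in the controls and 2.39, 2.57 and 1.35 FPKM in cKO. Its groups overlapped widely, and its log2 fold change of -0.04 turned to 0.15 without control replicate 3 or without cKO replicate 4. Hoxc9, a gene of the thoracic region, had 5.23, 5.59 and 4.79 FPKM in the controls and 5.15, 3.90 and 5.21 FPKM in cKO, where cKO 3 alone was low.

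The other HoxC genes overlapped between the groups, apart from Hoxc4, which was separated by a narrow gap. Hoxc4, a gene of the neck region, had 3.09, 3.27 and 3.22 FPKM in the controls and 2.81, 2.57 and 3.06 FPKM in cKO, a log2 fold change of -0.14 (SE 0.07, limma adjusted p = 0.244). Hoxc5 had 1.38, 1.67 and 1.22 FPKM in the controls and 1.77, 1.38 and 1.64 FPKM in cKO, and was the HoxC gene with a positive log2 fold change, 0.10. It shares 166 exon bases with Hoxc10 in the annotation, so reads there can belong to either gene. Hoxc6, a gene of the upper trunk, had 5.95, 7.79 and 5.96 FPKM in the controls and 6.38, 5.06 and 6.15 FPKM in cKO (log2 fold change -0.14, SE 0.12). Its extremes were again control 3 and cKO 3. Hoxc8, a gene of the lower neck and trunk, had 1.17, 2.09 and 1.72 FPKM in the controls and 0.987, 1.47 and 1.72 FPKM in cKO (log2 fold change -0.15, SE 0.17). Hoxc12 was read 4, 14 and 1 times in the controls and 1, 12 and 12 times in cKO, which shows no order between the groups.

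In HoxD the value of Hoxd8 came nearest to the threshold of all tested Hox genes. Hoxd8 (ENSMUSG00000027102), a trunk gene, had 1.95, 2.75 and 2.82 FPKM in controls 2, 3 and 4 and 3.99, 3.11 and 4.45 FPKM in cKO 2, 3 and 4, from 108 to 345 reads. All cKO values were above all control values, with means of 2.51 ± 0.484 and 3.85 ± 0.679 FPKM (SD, n = 3) and a log2 fold change of 0.47 (SE 0.14, limma adjusted p = 0.0925, with a range of 0.0540 to 0.259 in 20 other fits, exact 2-sided permutation p = 0.1). At a threshold of 0.1 it was called, the single Hox gene, where 10.1% of all genes were called higher and 6.69% lower. Hoxd9, its neighbour, fell outside the level set for values by library and was chosen after its values were seen: it had 0.650, 0.738 and 0.225 FPKM in the controls and 1.04, 0.856 and 1.03 FPKM in cKO. It rested on 10 to 62 reads, also without overlap (log2 fold change 0.37, SE 0.15, limma adjusted p = 0.153). After the GC correction its log2 fold change was 0.095, and with voom 1.02. Hoxd4, which shares exon bases with Hoxd3, had 1 to 3 reads in each library.

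Of HoxB, Hoxb4 alone exceeded 1 FPKM. Hoxb4, known for expanding blood stem cells when forced on, had 1.62, 1.39 and 1.71 FPKM in controls 2, 3 and 4 and 2.18, 1.86 and 2.12 FPKM in cKO 2, 3 and 4, from 77 to 154 reads. The cKO values were all above the controls, with a log2 fold change of 0.25 (SE 0.08, limma adjusted p = 0.115, exact 2-sided permutation p = 0.1), which was 0.15 after the GC correction and 0.40 with voom. Hoxb6 and Hoxb9, both trunk genes, averaged 0.649 and 0.582 FPKM with log2 fold changes of 0.09 and -0.19, and their groups overlapped. The 5 HoxB genes that were not tested had means of 0.138 (Hoxb2), 0.457 (Hoxb3), 0.149 (Hoxb5), 0.303 (Hoxb7) and 0.218 (Hoxb8) FPKM. Among them Hoxb5 and Hoxb7 lay higher in every cKO library, on few reads. Hoxb5 had 18 reads in all controls against 34 in all cKO libraries, and Hoxb7 had 18 against 40. For Hoxb5, control 3 (0.166 FPKM, 10 reads) and cKO 3 (0.179 FPKM, 9 reads) were nearly level. No share over all genes was worked out for genes this low. The level of Hoxb3 is uncertain, since Hoxb3os covers 52.9% of its exon bases on the other strand.

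Ratios between paralogs of a number are given here beside their sums. The sum over paralog 10 averaged 27.9 ± 0.788 FPKM over the controls and 28.4 ± 0.348 FPKM over the cKO libraries (SD, n = 3), while the ratio of Hoxa10 to Hoxc10 was 1.46, 1.24 and 1.32 in controls 2, 3 and 4 and 1.59, 2.05 and 1.73 in cKO 2, 3 and 4. This ratio lay higher in each cKO library than in any control, with the total of both genes nearly level. The ratio of Hoxd8 to Hoxc8 was 1.66, 1.31 and 1.65 in the controls and 4.04, 2.12 and 2.58 in cKO, also without overlap. Both ratios were picked after the values were seen and carry no test. Paralog 13 summed to 5.31 ± 0.796 FPKM in controls and 8.68 ± 3.52 FPKM in cKO, and overlapped. Paralog 3, from Hoxa3 and Hoxb3, summed to 1.22, 1.67 and 1.14 FPKM in controls 2, 3 and 4. In cKO 2, 3 and 4 it summed to 1.88, 2.00 and 2.28 FPKM, without overlap and with no test. The sums of all other paralog numbers overlapped.

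Of the limb identity factors, the hindlimb gene Pitx1 was read in all 6 libraries and the forelimb gene Tbx5 was at or near 0. Pitx1, a homeodomain factor that sets hindlimb identity, had 17.8, 15.4 and 16.8 FPKM in the controls and 22.8, 21.2 and 23.3 FPKM in cKO. Tbx5, a T-box gene, was at 0 in 4 libraries and at 0.0125 and 0.0206 FPKM in the others, while Tbx4, its hindlimb counterpart, lay between 0.196 and 0.593 FPKM and Isl1, active in the early hindlimb bud, between 0.0560 and 0.351 FPKM. Pitx1 was higher in cKO with a log2 fold change of 0.41 (SE 0.07, limma adjusted p = 0.0243), the single gene tested of the 4 listed. The call was lost without control replicate 4 or any 1 of the cKO replicates (limma adjusted p = 0.0628 to 0.0991), and after the GC correction the log2 fold change was -0.03 (limma adjusted p = 0.832), so the direction did not hold.

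The cofactors that bind DNA with Hox proteins, the TALE homeodomain factors, gave no call in the main test. Of 11 measured genes 9 were tested, 0 passed in limma, beside 7.61% of all genes, 2 had an unadjusted p under 0.05, beside 28.8%, and 1 was higher with voom, beside 8.27%. With library weights 2 were higher, beside 13.2%. Pbx2 had 12.7, 13.7 and 13.4 FPKM in the controls and 14.6, 15.1 and 16.3 FPKM in cKO (log2 fold change 0.20, SE 0.06, limma adjusted p = 0.0991, with a range of 0.0451 to 0.399 in 20 other fits). Meis3 had 11.2, 12.2 and 10.6 FPKM in the controls and 13.6, 13.7 and 15.8 FPKM in cKO, with a log2 fold change of 0.32 (SE 0.08, limma adjusted p = 0.0625, with a range of 0.0135 to 0.533 in 20 other fits and 0.0270 with voom). After the GC correction both had a log2 fold change of 0.089 (limma adjusted p = 0.384 for Pbx2 and 0.470 for Meis3). Pbx3, Meis1 and Meis2, named after their values were seen, had means between 0.639 and 1.89 FPKM in either group and overlapped.

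Other limb and axial patterning factors were called in both directions, among them Nkx3-2, Tbx2, Irx3 and Msx1. Of 51 listed genes 43 were in the table and 22 tested, of which 7 were higher and 1 lower in cKO, beside the 5.04% and 2.57% of all genes, with a median log2 fold change of 0.16. Nkx3-2, a repressor that promotes cartilage formation in the axial skeleton, went from 1.42 ± 0.233 to 4.83 ± 0.563 FPKM (SD, n = 3), a log2 fold change of 1.27 (SE 0.10, limma adjusted p = 0.00527) that kept its call whichever library was left out. Tbx2, a T-box repressor of the limb bud margins, rose from 3.22 ± 0.621 to 7.96 ± 1.16 FPKM, a log2 fold change of 1.09 (SE 0.13, limma adjusted p = 0.0117; 0.0604 without control replicate 4). Irx3, which takes part in early hindlimb and proximal limb patterning, rose from 53.4 ± 4.06 to 100.5 ± 13.7 FPKM (log2 fold change 0.89, limma adjusted p = 0.0117; 0.0599 without control replicate 4 and 0.0505 without cKO replicate 3). Msx1, a homeobox gene of undifferentiated limb mesenchyme, rose from 4.75 ± 0.537 to 9.53 ± 1.69 FPKM (log2 fold change 0.86, limma adjusted p = 0.0160; 0.0729 without control replicate 4). Irx5 and Hand2, not among the 4 largest, were also called upward, and Prrx1, a limb mesenchyme marker, was the call downward, from a mean of 24.0 to one of 18.7 FPKM. The count upward was 1 without control replicate 4, 3 without cKO replicate 3 and 4 to 6 without any other library, and that downward was 1 without control replicate 3 and 0 without any other library. After the GC correction 5 were higher and 0 lower, and the log2 fold change was 0.77 for Nkx3-2 and 0.56 for Irx3, both still called.

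**Figure D5:**
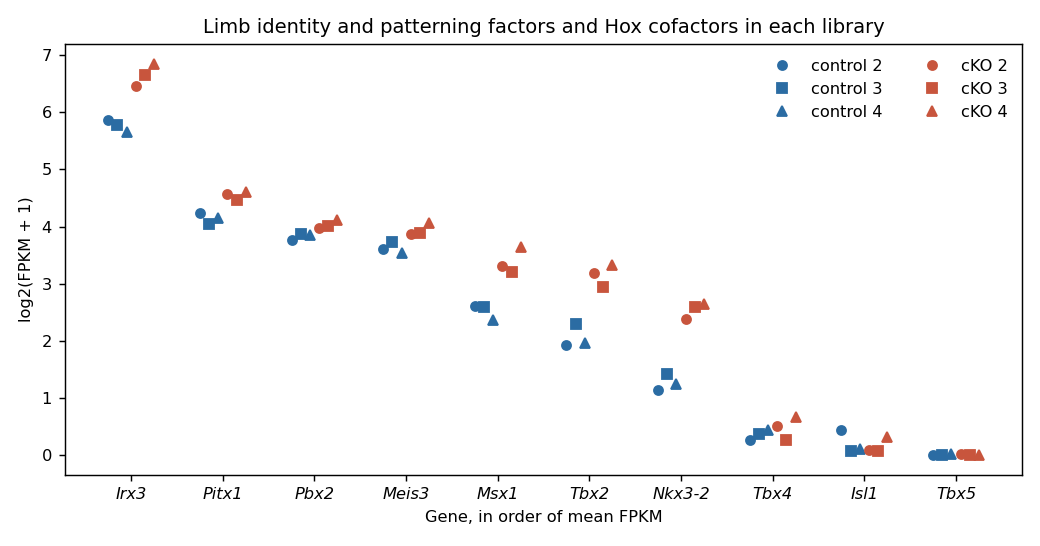
Level of the named limb identity factors, limb and axial patterning factors and Hox cofactors as log2(FPKM + 1), with 1 point per library (controls blue, cKO red). Irx3, Pitx1, Msx1, Tbx2 and Nkx3-2 are higher in all 3 cKO libraries than in the controls, while Tbx5 stays at or near 0 in all 6.

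Genes known to switch Hox clusters on or to keep them on or off are given beside the 5.04% of all genes called higher and the 2.57% called lower. Of the upstream regulators of Hox onset, which hold retinoid and Cdx genes among others, 15 of 18 were in the table and 10 tested, with 1 higher and 0 lower. This was Rxrb, a partner receptor for retinoic acid receptors, which rose from 25.7 ± 3.37 to 42.0 ± 3.30 FPKM (SD, n = 3; log2 fold change 0.69, SE 0.11, limma adjusted p = 0.0173; 0.0832, 0.0681 and 0.0548 without control replicate 4, cKO replicate 3 and cKO replicate 4). After the GC correction its log2 fold change was 0.40 (limma adjusted p = 0.0429). Aldh1a2, which makes retinoic acid, was chosen after its values were seen and went from a mean of 6.68 to one of 12.2 FPKM without passing (limma adjusted p = 0.0596). Of 32 Polycomb genes, whose products keep Hox genes silent, all were tested and 2 were higher and 2 lower, beside 5.04% and 2.57% of all genes. Phf1, a PRC2 partner, went from 14.2 ± 1.07 to 21.9 ± 1.31 FPKM and Cbx7, a PRC1 subunit, from 1.17 ± 0.0285 to 1.97 ± 0.0676 FPKM. Eed, a core subunit of PRC2, went from 11.1 ± 0.265 to 8.50 ± 0.451 FPKM and Pcgf3, a subunit of a PRC1 variant, from 8.69 ± 0.432 to 6.74 ± 0.247 FPKM. Their limma adjusted p values were 0.0120, 0.0162, 0.0222 and 0.0290, and the log2 fold change of Phf1 was 0.59, or 0.39 after the GC correction. With that correction, or with no filter on low values, Pcgf3 lost its call while Phf1, Cbx7 and Eed kept theirs. Without control replicate 4 or cKO replicate 3 none of the 4 passed (0.0548 to 0.115), and Cbx7, Eed and Pcgf3 also failed without cKO replicate 2 or cKO replicate 4 (0.0531 to 0.0908).

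Of 18 trithorax genes and H3K27 demethylases, which oppose Polycomb, 1 was higher and 1 lower, beside 5.04% and 2.57% of all genes. Kdm6a, which removes the H3K27 mark, went from 2.94 ± 0.156 to 4.31 ± 0.145 FPKM (SD, n = 3; limma adjusted p = 0.0150). It is an X-linked gene known to escape X inactivation, and the groups differ in their Xist level as given above. Aff4, of the super elongation complex, went from 14.4 ± 0.935 to 10.4 ± 0.216 FPKM (limma adjusted p = 0.0158). Both calls were lost without control replicate 4 or cKO replicate 3, and that of Kdm6a also without cKO replicate 2 (0.0536 to 0.0692). Of 20 noncoding genes of the Hox clusters, 14 were in the table, 3 were tested and 0 passed, beside 7.61% of all genes, with 1 at an unadjusted p under 0.05, beside 28.8%, and 0 with voom. Mir196a-1, in HoxB, had 1, 3 and 5 reads in controls 2, 3 and 4. In cKO 2 it had 1 read and in the other cKO libraries none. Its averages of 1.40 FPKM in controls and 0.190 FPKM in cKO rest on these few reads (limma adjusted p = 0.110). Mir196a-1 was called lower with library weights (limma adjusted p = 0.0285), beside 10.3% of all genes, and without control replicate 2 (limma adjusted p = 0.0493). Mir615, in HoxC, averaged 1.55 and 2.56 FPKM on 2 to 7 reads in a library (limma adjusted p = 0.372). The values of Mir196a-1 and Mir615 are gene-body reads that do not measure the mature miRNA. Hotair, a noncoding gene of HoxC named after its values were seen, lay between 0.0529 and 0.254 FPKM.

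Markers of other cell types that moved with the groups stand beside all of these values. Of 5 endothelial markers 1 was lower in cKO, Emcn, from 3.16 ± 0.276 to 1.99 ± 0.283 FPKM (SD, n = 3; limma adjusted p = 0.0323, and 0.0589 to 0.0896 without any 1 library), and 4 of the 5 had an unadjusted p under 0.05, beside 28.8% of all genes. The same number lay lower in every cKO library than in any control, beside 17.8%, and 4 were called lower with voom, beside 3.49%, and with library weights, beside 10.3%. The 5 summed to 18.3 to 23.6 FPKM in controls and 13.0 to 15.1 FPKM in cKO. The 6 chondrocyte markers had 4 tested and 0 called in limma, beside 7.61% of all genes, and 2 at an unadjusted p under 0.05, beside 28.8%. With voom 2 were called higher, beside 8.27%. In every cKO library 2 lay higher than in any control, beside 17.9%. The 6 summed to 188 to 253 FPKM in controls and 270 to 412 FPKM in cKO, nearly all of it Col2a1, and Acan and Col9a1 lay below 0.5 FPKM. Of 5 measured skeletal muscle markers 2 were tested and 0 called, beside 7.61% of all genes. There was 1 at an unadjusted p under 0.05, beside 28.8%, and 1 called lower with voom, beside 3.49%. Myod1, Myog and Myf5 were at 0 in all cKO libraries and at most at 0.225 FPKM in a control. Of the macrophage markers 11 were tested and 0 called, with 2 at an unadjusted p under 0.05 and 1 higher with voom, beside 8.27%. Of the stromal markers 10 were tested and 0 called, with 2 at an unadjusted p under 0.05 and 1 lower with voom, beside 3.49%. Beside both lists, 7.61% of all genes were called and 28.8% had an unadjusted p under 0.05. The stromal markers summed to 4365 to 4863 FPKM in controls and 3553 to 4913 FPKM in cKO. Of 5 sex-linked genes 1 was higher and 4 lower. The part of these cells in the Hox values was not tested.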

How the data were processed

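The authors deposited FPKM values, 1 column per library. The labels' protocols give a NEBNext Ultra library kit and an input of 3 µg of total RNA. The submitters' processing notes name HTSeq 0.6.0 and DESeq2 1.10.1 without saying for which step. No aligner, genome build, annotation or strand setting of the authors is given in the sources used here.

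Symbols, coordinates and exon lengths came from GENCODE vM21 (GRCm38), which held 23510 of the 23622 identifiers. Promoter windows came from RefSeq. FPKM values of a gene were whole multiples of 1 read for all 23427 genes with a value (100%, tolerance 1e-09), and the implied length of all 34 Hox genes was the exon union of that annotation. Recovered reads are given as the depth behind a value, and floors of 3 reads cover counting error only.

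FPKM was taken as log2(FPKM + 1), which understates changes of low genes. All 13326 genes averaging 0.5 FPKM or more entered limma 3.58.1 (R 4.3.3), with its moderated test, an intensity trend, 2-sided p values, no covariate and Benjamini-Hochberg adjustment at 0.05. All adjusted p values come from limma. Alternatives were other pseudocounts, filters and scalings, no trend, library weights, voom, a GC correction (loess, span 0.5), a replicate block, another threshold, no X or Y genes, and leaving out each library. The procedure was run on simulated data with the same setting of spread for all genes, which does not cover the differences seen between these libraries. Tables and plots were made in Python 3.11.15 using numpy 2.4.6, pandas 2.3.3 and matplotlib 3.10.9.

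Values of 1 Hox gene and 2 genes of the further lists are not reported here and not plotted singly, while counts and sums hold them. The Hox genes and the further lists were chosen with earlier results of these data known. Values by library are given for Hox genes that reached 1 FPKM in the mean of either group. A further list is represented by up to 4 called genes, those with the strongest log2 fold changes, or, with none called, by the 2 highest means, and the limb identity list by all 4 genes.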

Additional observations from a re-analysis of the deposited data

How the results depend on the processing

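The result of 0 called Hox genes in either direction held in 18 of the 20 alternative fits. The exceptions were library weights, with 3 higher and 1 lower, and a threshold of 0.1, with 1 higher. The median log2 fold change of the tested Hox genes (0.05) was 0.14 with a mean FPKM of at least 1, 0.15 with voom, -0.014 with the GC correction, with or without the replicate block, and 0.038 to 0.10 with 1 library left out, the highest without cKO replicate 3. Over all genes, the 672 higher and 342 lower became 327 and 184 with no filter on low values, 1765 and 1378 with library weights and 1346 and 891 at the threshold of 0.1. The count higher was 1102 with voom and 355 with the GC correction, and the count lower 560 after quantile normalization. With 1 library left out they ran from 45 to 626 higher and from 26 to 374 lower: control replicate 4 left 45 and 26 when dropped, cKO replicate 3 left 129 and 46, cKO replicate 2 left 282 and 101, and cKO replicate 4 left 308 and 136. The causes were not tested.

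The libraries of both groups carry the numbers 2, 3 and 4, and the labels used here do not say whether a number marks a pair. Deviations from the group means of same-numbered libraries correlated at -0.039, -0.054 and 0.035 over 13326 genes. Libraries of unlike number correlated at -0.043 to 0.086. No pairing by number was seen, but with 3 libraries a group these values cannot exclude one. With the replicate block 42 genes were higher and 22 lower, and 1 and 2 with the GC correction added, with 0 Hox genes in both fits. Of the limb and axial patterning factors, Nkx3-2 alone stayed called with the replicate block. Tbx2, Irx3, Msx1, Pitx1, Rxrb, Emcn and Ift140 lost their calls there, as did the named Polycomb and trithorax genes.

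Of 474 values of single Hox genes under the alternatives, 452 kept their direction and their side of the threshold, 5 were newly called and 17 turned their direction. Hoxa4 turned to -0.015 after quantile normalization, -0.068 with library weights, -0.17 in both GC fits, -0.050 without control replicate 3 and -0.11 when cKO replicate 4 was dropped, and leaving out each library gave -0.11 to 0.11. Hoxa7 turned to -0.011, -0.052, -0.024, -0.056 and -0.060 in the same order, with -0.060 to 0.098 over the libraries left out. Hoxc13 turned to 0.22 with library weights and to 0.15 with control replicate 3 or cKO replicate 4 left out, within a range of -0.17 to 0.15. In both GC fits Hoxb6 turned to -0.0048, Pitx1 to -0.028 and Mir615 to -0.13, and Acta1 turned to 0.049 without control replicate 2, within a range of -0.33 to 0.049. Of 517 values of other named genes 423 kept direction and call, 67 lost a call, 22 gained one and 5 turned.

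Count tests with edgeR and DESeq2 were not run, since the deposited values are FPKM. Hox genes under about 1 FPKM rest on few reads, and 3 libraries a group cannot give an exact permutation p under 0.1.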
